A study of Mus musculus with 7 samples.

Results

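The miR-21 hairpin gives rise to a pair of mature microRNAs, and both arms were measured in the kidneys of wild-type and megabladder mice: miR-21, the arm cut from the 5′ side of the hairpin, and miR-21*, the arm cut from its 3′ side. The members were all array features annotated as mmu-miR-21 or mmu-miR-21*, which gave 2 of the 611 mouse microRNAs on the array and 6 of its 1857 non-control probes. Each of the 2 miR-21 probes, A_54_P1307 and A_54_P1308, was printed as 10 spots per array, and each of the 4 miR-21* probes, A_54_P3444 to A_54_P3447, as 5 spots. RNA came from whole snap-frozen kidneys of male mice labelled 4 weeks old, with a protocol range of 3.5 to 4 weeks. The wild-type group (mgb+/+) held mice 1 to 4 and the homozygous mutant group (mgb-/-) held mice 2 to 4, with 1 array per mouse. Megabladder mice carry a mutation that leaves the bladder without proper smooth muscle, which obstructs urine flow and dilates the kidney. The series text counts 4 mutants, of which mouse 1 was not used here. The degree of dilation of each kidney is not in the labels, and a whole kidney mixes tubule, vessel, stroma and blood, so fewer cells of a type and less RNA per cell cannot be told apart.

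A microRNA hairpin is cut by Drosha and then Dicer into a short duplex, of which 1 strand, the guide, is loaded into Argonaute and silences transcripts that match its seed, while the other, the passenger or star strand, is mostly degraded. miR-21 is an abundant guide in many tissues, raised in injured and fibrotic kidney, where it is known to repress genes of lipid and mitochondrial metabolism; TGF-beta signalling is known to favour its maturation. The passenger arm usually lies far below the guide, and a change in their ratio can be seen only by measuring both.

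The mature sequences from RefSeq (build GRCm38.p6) are shown because both arms come from 1 precursor yet have different seeds, so they address different targets. The seed, bases 2 to 8 from the 5′ end, is in capitals.
miR-21 (miR-21a-5p): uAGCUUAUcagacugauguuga
miR-21* (miR-21a-3p): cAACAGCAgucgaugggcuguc
Both are 22 bases long, and both names matched the RefSeq table. In the precursor, 92 bases long, bases 18 to 39 are miR-21 and bases 56 to 77 are miR-21*, printed here in capitals.
Mir21a hairpin: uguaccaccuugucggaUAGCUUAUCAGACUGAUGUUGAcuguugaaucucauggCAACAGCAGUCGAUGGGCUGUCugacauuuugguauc
In the same table Mir21a lies within the span of Vmp1, a gene whose protein acts in autophagosome formation. The table holds 1 other mouse microRNA with the seed of miR-21, and a relative with an altered seed; neither name is on the array.
miR-21c: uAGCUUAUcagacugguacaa
miR-21b: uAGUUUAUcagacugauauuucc
Counted from the 5′ end of miR-21, miR-21c differs at A16G, G18A, U19C, U20A and G21A, and miR-21b at C4U, G18A, G21U and A22C. Cross-hybridisation of these relatives to the miR-21 probes was not tested. No other mouse microRNA of the table shares the seed of miR-21*.

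Signals below are background-subtracted spot signals in scanner units, averaged over the spots of a probe. For the fits they were divided by the 75th percentile of the 292 probes above background on all 7 arrays and are then called scaled units. That percentile was 391.3, 440.1, 495.8 and 348.1 units on the wild-type arrays and 269, 333.4 and 223.5 units on the megabladder arrays. The wild-type arrays were thus all brighter than the megabladder arrays (exact permutation test over the 35 splits of 7 arrays, 2-sided, p = 0.0286, the smallest these splits can give), so that scaling lowered wild-type and raised megabladder values relative to each other. Each genotype filled a slide row of its own, so the effect of the row cannot be told apart from that of the genotype. Between 19.0% and 21.8% of probes were above background per array, and no spot was saturated. Each member is therefore given both unscaled and scaled.

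No difference of miR-21 between the genotypes exceeded the spread between mice on scaled signals, with either probe. Before scaling, A_54_P1307 read 4114, 4596, 8033 and 4872 units in wild-type mice 1 to 4 and 3963, 4670 and 2984 units in megabladder mice 2 to 4. Wild-type mouse 3 stood highest and megabladder mouse 4 lowest, and the groups overlapped. A_54_P1308 read 1048, 1017, 1711 and 976.1 units in wild-type and 779.5, 925.5 and 617.2 units in megabladder kidneys. Its unscaled signals did not overlap and were lower in the mutants, 1188 ± 349.9 (SD, n = 4) against 774.1 ± 154.2 units (SD, n = 3; exact permutation test, p = 0.0571), but so were those of 38.4% of the 404 probes that entered the probe fit, on arrays that were dimmer in general. All 40 wild-type and all 30 megabladder spots of each miR-21 probe were above background, and the spots of 1 probe on 1 array varied by 0.892% to 8.73% (coefficient of variation), so before scaling the spread between mice was larger than that between spots.

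After scaling, A_54_P1307 averaged 4427 ± 974.7 scaled units in wild-type (n = 4) and 4857 ± 239.7 in megabladder kidneys (n = 3), a ratio of 1.10. A_54_P1308 averaged 973.1 ± 164.5 and 973.3 ± 26.0 scaled units, a ratio of 1.00. The limma log2 difference, megabladder minus wild-type, was 0.16 for A_54_P1307 (95% interval -0.26 to 0.58, adjusted p = 0.686) and 0.015 for A_54_P1308 (95% interval -0.32 to 0.35, adjusted p = 0.954). As a microRNA level, the mean of the log2 values of its probes, miR-21 stood at 10.84, 10.73, 11.34 and 11.08 in wild-type and 11.14, 11.08 and 11.04 in megabladder kidneys. The megabladder values lay inside the wild-type range, and the limma fold was 1.06 with a 95% interval of 0.826 to 1.36 (adjusted p = 0.838). The sign of this small difference depended on the scaling: it was -0.070 with the median of detected probes and -0.53 with no scaling. Relative to the median of all tested microRNAs it lay between -0.031 and 0.24 in all 5 scalings, including quantile scaling.

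**Figure D1:**
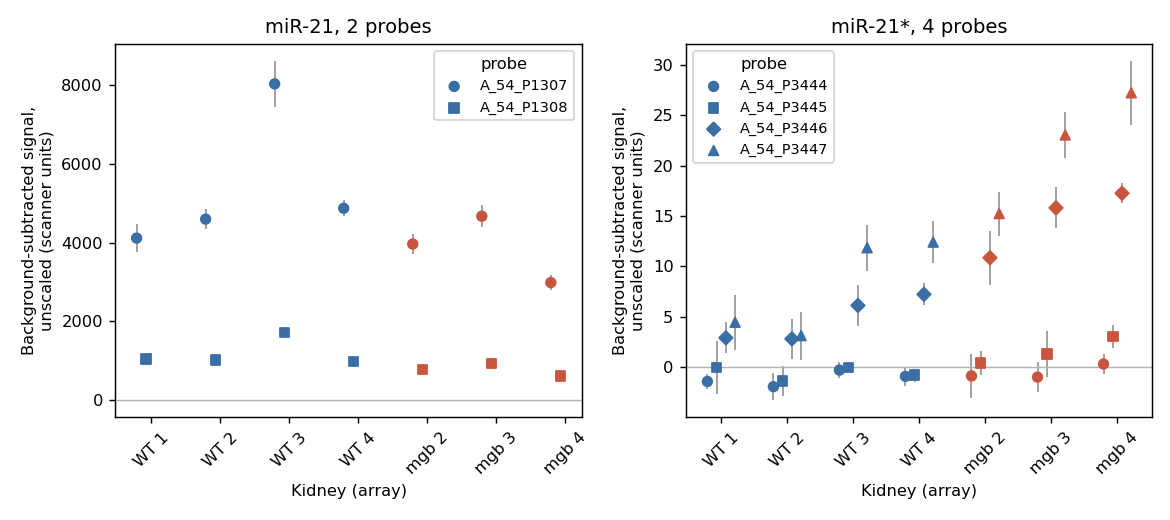
Background-subtracted, unscaled signal (scanner units) of each miR-21 probe (left) and each miR-21* probe (right) on the 7 arrays; points are means over the spots of a probe, bars are the SD over spots, blue is wild-type (WT) and red is megabladder (mgb). A_54_P3446 and A_54_P3447 sit higher in all 3 megabladder kidneys than in any wild-type kidney, the 2 miR-21 probes do not, and A_54_P3444 and A_54_P3445 lie near 0 throughout.

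miR-21* was near the detection limit in wild-type kidneys and above it in every megabladder kidney. A_54_P3447 read 4.44, 3.12, 11.8 and 12.4 units in wild-type mice 1 to 4 and 15.3, 23.1 and 27.2 units in megabladder mice 2 to 4. A_54_P3446 read 2.90, 2.80, 6.12 and 7.23 units in wild-type and 10.9, 15.8 and 17.3 units in megabladder kidneys. For both probes every megabladder value lay above every wild-type value, wild-type mice 1 and 2 were the lowest pair and megabladder mouse 4 the highest. The unscaled mean was 7.96 ± 4.86 against 21.86 ± 6.09 units for A_54_P3447 and 4.76 ± 2.25 against 14.65 ± 3.36 units for A_54_P3446 (SD, n = 4 and n = 3; exact permutation test, p = 0.0286 for each). No fold is given for these means, because wild-type signals were in part or wholly not above background.

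The scanner software's own spot flags split in the same direction. With A_54_P3447, 9 of 20 wild-type spots and 15 of 15 megabladder spots were above background, and a probe counted as above background on an array when at least 0.5 of its spots were, which held in wild-type mice 3 and 4 and in all 3 mutants. With A_54_P3446, 0 of 20 wild-type spots and 12 of 15 megabladder spots were above background, so that this probe was measured only in the mutants. The spots of these dim probes scattered more than those of miR-21, by 5.80% to 70.0% for A_54_P3446 and by 9.75% to 76.4% for A_54_P3447 on a single array. The remaining probes of miR-21* were above background on no array. A_54_P3444 read between -1.95 and 0.302 units over all 7 arrays, with overlapping groups. A_54_P3445 read -0.0479, -1.41, -0.06 and -0.806 units in wild-type and 0.417, 1.30 and 3.05 units in megabladder kidneys, signals that the software did not call above background.

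Values of the arrays' general background are given beside these signals. The median of the 1298 mouse probes that were above background on no array was -0.863, -1.07, -0.762 and -0.695 units in wild-type and -0.517, -0.821 and -0.446 units in megabladder kidneys, which overlapped (exact permutation test, p = 0.171). Their 99th percentile ran from 6.39 to 8.72 units in wild-type and from 7.11 to 9.45 units in megabladder kidneys (exact permutation test, p = 0.914). The median of 434 negative control spots ran from 0.21 to 1.21 and from 0.501 to 1.31 units, also with overlap. The part of the background in the miR-21* signals was not tested.

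In the limma fit, values under 11.39 scaled units (3.51 on the log2 scale) were set to that floor. A_54_P3446 averaged 4.06 ± 2.27 scaled units in wild-type and 19.05 ± 6.78 in megabladder kidneys. On scaled signals only, its fold was at least 2.01, taken against the lowest signal above background on each wild-type array. This bound rests on the scaling, whose log2 factor differed by -0.61, megabladder minus wild-type, and it does not hold for unscaled signals. A_54_P3447 averaged 6.75 ± 4.47 and 28.59 ± 11.98 scaled units. A_54_P3446 entered the fit, which asks for a probe above background on at least 3 arrays, through the 3 megabladder arrays alone, and all its wild-type values were at the floor, so the direction of its fitted difference of 0.68 (limma adjusted p = 0.136) was set by the filter. A_54_P3447 met the filter with 2 wild-type and 3 megabladder arrays, so it too needed the mutants to enter. Its fitted log2 difference was 1.22 (95% interval 0.63 to 1.81, limma adjusted p = 0.0549). Neither passed the threshold of 0.05, and nor did any other of the 404 probes (0%), of which 88 were higher in the mutants at an unadjusted p under 0.05 (21.8%).

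The floored log2 level of miR-21*, the mean over A_54_P3446 and A_54_P3447, was 3.51, 3.51, 3.51 and 3.57 in wild-type and 4.05, 4.31 and 5.07 in megabladder kidneys. Wild-type mice 1 to 3 were at the floor, and no wild-type value reached the lowest mutant value. The floor cut the wild-type spread to an SD of 0.029, so the interval and limma p that follow do not rest on the full spread between mice. The difference was 0.95 (SE 0.23, 95% interval 0.42 to 1.49), or 1.93-fold with an interval of 1.34 to 2.80, and missed the threshold narrowly in limma (adjusted p = 0.0551). By the exact permutation test on this level alone p was 0.0286. Since both probes entered only with the help of the megabladder arrays, where they were high, these tests are no independent support for the direction, and the same holds for the arm ratio formed from this level. Of all 213 microRNAs tested, 7 passed in limma (3.29%), 6 of them higher (2.82%), and neither arm of miR-21 was among them. At an unadjusted p under 0.05, miR-21* was 1 of 43 that were higher (20.2%). The groups failed to overlap, with the mutants higher, in 40 of the 213 (18.8%), so on scaled levels the separation of miR-21* was not rare. Over the tested star arms as a whole the median difference was 0.047 (28 arms, 3 passed), and over all 213 microRNAs 0.087.

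Scaling raised megabladder values, so the same test was run on unscaled signals, where most microRNAs were lower in the mutants. Only 36 of 213 differences were then above 0, with a median of -0.50, and 68 microRNAs were called lower. miR-21* was the only 1 called higher (0.469%), with a log2 difference of 0.66 (limma adjusted p = 0.0397). Among the 404 single probes, A_54_P3447 was likewise the only 1 called higher without scaling, at 0.89 (limma adjusted p = 0.0360), against 88 called lower. The same filter applied here, and both miR-21* probes again needed the megabladder arrays to enter. These calls are therefore no independent support for the direction either. A floor set by the same rule also applied without scaling. Wild-type signals of A_54_P3446 on all arrays, and of A_54_P3447 in mice 1 and 2, were set to it. The adjusted p-values of these calls thus do not rest on the full spread between mice. Unscaled signals of all 3 mutants lay above those of all 4 wild-type mice in 8 of the 404 probes (1.98%). A_54_P3446 and A_54_P3447 were 2 of these 8, and the others belonged to let-7f* (2 probes), let-7b*, miR-291b-5p, miR-702 and miR-715. The gap between the highest wild-type and the lowest megabladder signal was 7.23 to 10.9 units for A_54_P3446 and 12.4 to 15.3 units for A_54_P3447. It was 13.64 to 15.02 units for miR-291b-5p, and 13.89 to 14.97 and 14.04 to 14.74 units for the let-7f* probes. For let-7b*, miR-702 and miR-715 it was 17.3 to 17.72, 18.06 to 18.55 and 20.63 to 21.14 units. Both miR-21* probes were among the 404 through the same filter, so this count and these gaps are no independent support either.

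Both other summaries of miR-21* in the data put the mutants higher on average. The scanner software's total signal for miR-21*, unscaled, was 0.1, 0.1, 3.80 and 6.35 in wild-type and 8.53, 12.5 and 14.6 in megabladder kidneys, with the software's detection call in 2 of 4 wild-type and 3 of 3 mutant kidneys; the groups did not overlap. In the authors' deposited table miR-21* stood at 20, 20, 24 and 30 in wild-type and 28, 33 and 36 in megabladder kidneys. Here wild-type mouse 4 exceeded megabladder mouse 2, so the groups overlapped, and 20 is the lowest value the table holds. miR-21 stood at 2881, 3214, 3850 and 3415 against 3850, 4332 and 3415 in the authors' deposited table.

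The ratio of the arms within each array needs no scaling between arrays when formed from the raw signals. It was read only as a difference between arrays, since the probes of the 2 arms need not give equal signal per molecule. On floored levels the log2 ratio, miR-21* minus miR-21, was -7.33, -7.22, -7.83 and -7.51 in wild-type and -7.09, -6.77 and -5.97 in megabladder kidneys. The ratio was higher in every megabladder kidney than in any wild-type kidney, -6.61 ± 0.58 (n = 3) against -7.47 ± 0.26 (n = 4). In wild-type mice 1 to 3 miR-21* was at the floor, so their ratios varied only with miR-21. The wild-type SD, and the interval and p-values that follow, therefore do not rest on the full spread of the ratio. The difference of 0.87 had the smallest p that the 35 splits allow (exact permutation test, p = 0.0286), and limma over the 15 testable pairs of arms gave a 95% interval of 0.27 to 1.47 (adjusted p = 0.0314). With the floor the ratio was not free of the scaling: its difference was 0.52 with quantile scaling and 1.18 with no scaling. How the difference divided between the arms depended on the scaling too. With the main scaling miR-21* differed by 0.95 and miR-21 by 0.087, with no scaling they differed by 0.66 and -0.53, and with the 75th percentile of all probes by 0.46 and -0.65.

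The ratio was also formed without floor and scaling, from wild-type signals of which A_54_P3446 was above background on no array and A_54_P3447 in mice 3 and 4 only. The summed signal of A_54_P3446 and A_54_P3447, as a percentage of the summed signal of both miR-21 probes, was 0.142%, 0.105%, 0.184% and 0.336% in wild-type and 0.551%, 0.695% and 1.24% in megabladder kidneys. The lowest mutant percentage exceeded the highest wild-type one, and the means were 0.192 ± 0.101% and 0.827 ± 0.362% (exact permutation test, p = 0.0286). The wild-type percentages are therefore near the detection limit, and no fold between the genotypes is given. The log2 ratio of the 2 miR-21 probes to each other, A_54_P1308 over A_54_P1307, differed by -0.14 (exact permutation test, p = 0.114).

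**Figure D2:**
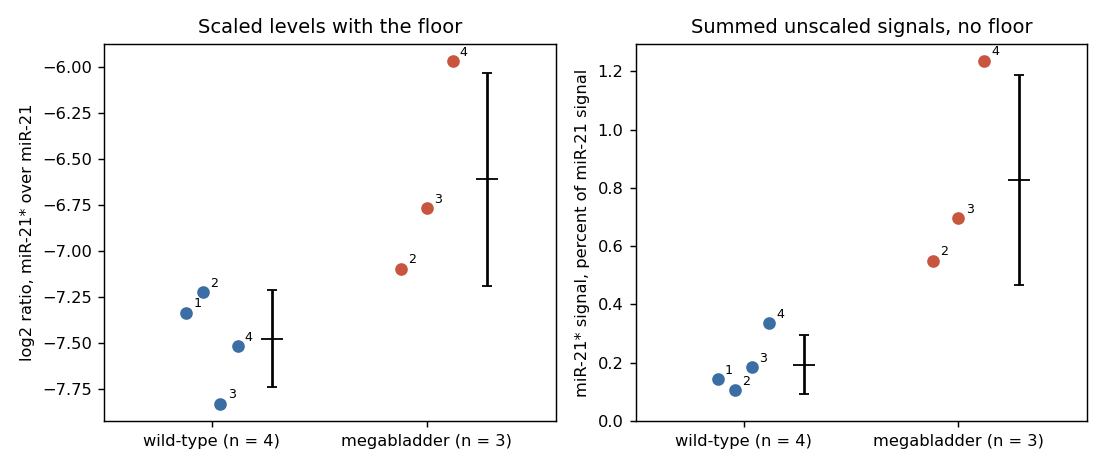
log2 ratio of miR-21* over miR-21 on each array, from scaled levels with the floor (left) and the summed unscaled signal of A_54_P3446 and A_54_P3447 as a percentage of that of both miR-21 probes (right); numbered points are mice, bars give the mean and SD per genotype. In both panels the 3 megabladder kidneys lie above the 4 wild-type kidneys, whose miR-21* signals were at or near the detection limit.

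Both arms were testable in 15 pairs, and miR-21 was 1 of 5 whose ratio was higher in megabladder kidneys by the exact permutation test (33.3%), all 5 without overlap between the groups. The others were let-7b (log2 difference of the ratio 1.10), let-7f (1.00), let-7d (0.80) and miR-193 (0.42), each with p = 0.0286 by the same exact permutation test. No ratio was lower by that test (0%), and that of miR-30a, at -0.074, was the 1 pair with all mutants below all wild-type values (6.67%). The values of the single arms, on the main scaling, were as follows. For let-7b and let-7f, guides that restrain growth genes in differentiated tissue, the star arm differed by 0.84 and 0.70 and the guide by -0.26 and -0.29. For let-7d the star arm differed by 0.76 and the guide by -0.040. For miR-193 the star arm differed by -0.042 and the guide by -0.46. The star arm sat at the floor on 3 arrays for miR-21, on 2 for let-7f and let-7d and on 1 for let-7b and miR-193, so that these 5 differences are bounded by the floor to different degrees and were not ranked. The 9 pairs whose groups overlapped differed by -0.13 to 0.23, and their star arms were above the floor on all arrays, except miR-30b*, at the floor on 5.

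**Figure D3:**
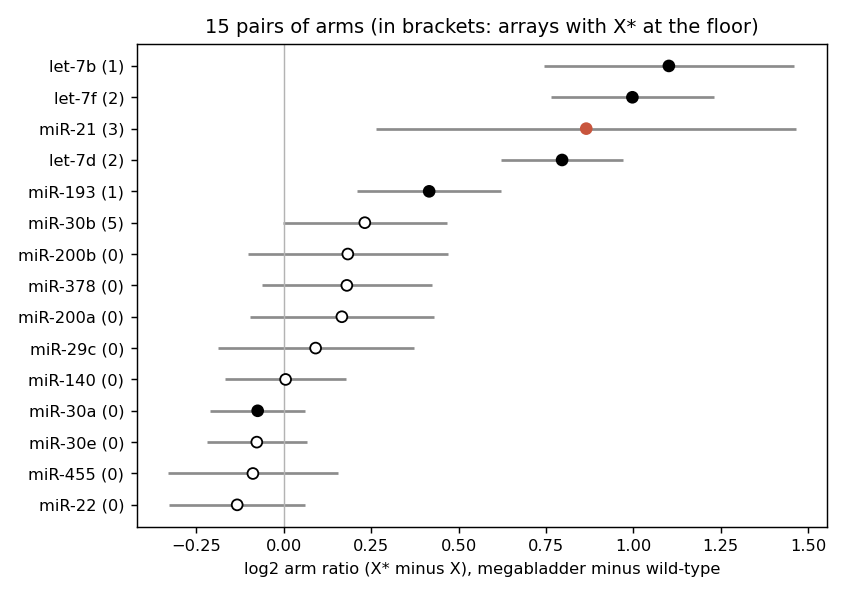
Difference in log2 arm ratio (star arm minus guide arm), megabladder minus wild-type, for the 15 pairs of arms tested; points are differences of means, bars 95% intervals from limma, filled points mark pairs whose genotypes did not overlap, and miR-21 is in red. miR-21 (0.87) lies among let-7b (1.10), let-7f (1.00) and let-7d (0.80), apart from the pairs near 0.

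The microRNAs whose log2 levels, centred on their own mean, ran closest to each arm over the 7 arrays were different for the 2 arms. For miR-21 they were miR-7a, miR-30c-2* and miR-30a, with root mean square differences of 0.12, 0.12 and 0.13, against a median of 0.29 over all tested microRNAs. Their levels differed between the genotypes by -0.011, 0.029 and 0.010. For miR-21* they were miR-764-5p, miR-702 and let-7b*, at 0.22, 0.23 and 0.23, against a median of 0.55. let-7b* was at 3.76, 3.80, 3.51 and 3.65 in wild-type and 4.53, 4.20 and 4.82 in megabladder kidneys, a difference of 0.84 (limma adjusted p = 0.0315). miR-702 differed by 0.75 and miR-764-5p by 0.60 (limma adjusted p = 0.0551 for each), and all 3 were dim, with levels below 5 on the log2 scale on every array. Likeness over 7 arrays of 2 genotypes describes these libraries, which share the scaling and the floor.

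The list of other microRNAs associated with fibrosis or TGF-beta signalling had 12 members on the array, of which 7 could be tested. None passed over all 213 microRNAs in limma, and 2 had an unadjusted p under 0.05, as did 49 of all 213. Of the differences, 4 were above 0 and 3 below, and the median was 0.38 against 0.087 over all microRNAs. The 4 above 0 were the products of the miR-199 and miR-214 genes, which are expressed in mesenchymal cells: miR-199b* at 0.59 (adjusted p = 0.214), miR-199a-3p at 0.42 (adjusted p = 0.231), miR-199a-5p at 0.39 (adjusted p = 0.210) and miR-214 at 0.38 (adjusted p = 0.244), all by limma. Only miR-199a-5p of these separated the groups without overlap, which 18.8% of all 213 microRNAs did with the mutants higher. miR-192, an epithelial microRNA of the tubule, differed by -0.093, miR-34a, a target of p53, by -0.45 and miR-155, a microRNA of activated leukocytes, by -0.47, none past the threshold. Without scaling the median of the list was -0.19, and with the 75th percentile of all probes -0.32, so the sign of this median depended on the scaling. miR-214*, miR-377, miR-382, miR-433 and miR-132 could not be tested.

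Marker microRNAs of the cell types a kidney can hold are given beside miR-21*, whose source in the tissue was not tested. The tubule list (7 of 7 tested) summed to 4440 to 4572 scaled units in wild-type and 4058 to 4625 in megabladder kidneys. Leukocyte markers (4 of 6 tested, with miR-223 and miR-142-3p among them) summed to 153.4 to 201.3 and 139 to 200.3 scaled units. Both lists overlapped between the genotypes, as did erythroid markers (3 of 3), at 2129 to 2811 and 1952 to 3724 scaled units. The stromal list (4 of 4, the same miR-199 and miR-214 products) summed to 280.1 to 377.8 in wild-type and 353.2 to 575.4 in megabladder kidneys, with overlap (exact permutation test, p = 0.114). Smooth muscle markers miR-143 and miR-145 (2 of 2) summed to 150.2 to 190.5 and 167.3 to 206.6 scaled units. Urothelial markers (2 of 2) summed to 22.79 to 23.75 and 29.95 to 67.81 scaled units, without overlap (exact permutation test, p = 0.0286). Of all 213 single microRNAs, 18.8% likewise had every mutant above every wild-type level. miR-205, the defining urothelial member, was at the floor in all 4 wild-type kidneys, so its difference could only be upward. In megabladder mice 2 to 4 miR-205 was at 5.61, 4.41 and 4.21. miR-31, the other member, was at 3.51, 3.51, 3.63 and 3.51 in wild-type kidneys. In megabladder kidneys it was at 4.25, 4.19 and 3.51, with overlap (exact permutation test, p = 0.143). No marker of any of these lists passed over all microRNAs in limma, and the part of these cells in the miR-21* difference was not tested.

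The 2 arms differed in how their results held under other processing choices. miR-21* was higher in megabladder kidneys in all 24 alternatives that gave a value, by 0.46 to 2.30, and its limma or permutation p was under 0.05 in 7 of them. Without megabladder mouse 4, the highest, its difference was 0.66 (limma adjusted p = 0.0260). Leaving out any other single mouse gave a limma adjusted p from 0.0749 to 0.161, past the threshold in none. The arm ratio was likewise higher in all 24 alternatives, by 0.26 to 2.22, with p under 0.05 in 11. In most alternatives the same filter chose the probes, so the shared direction of both results is no independent support. With no filter, A_54_P3444 and A_54_P3445, at the floor on all arrays, also entered the mean, which lowered the difference. miR-21* then differed by 0.48 (limma adjusted p = 0.451) and the ratio by 0.39 (exact permutation test, p = 0.143). The single probes A_54_P3446 and A_54_P3447 still differed by 0.68 and 1.22 (limma adjusted p = 0.476 for each). With a floor of 1 unit in place of 11.39 the difference of miR-21* was 2.30 (limma adjusted p = 0.0903), so its size depended on the floor.

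**Figure D4:**
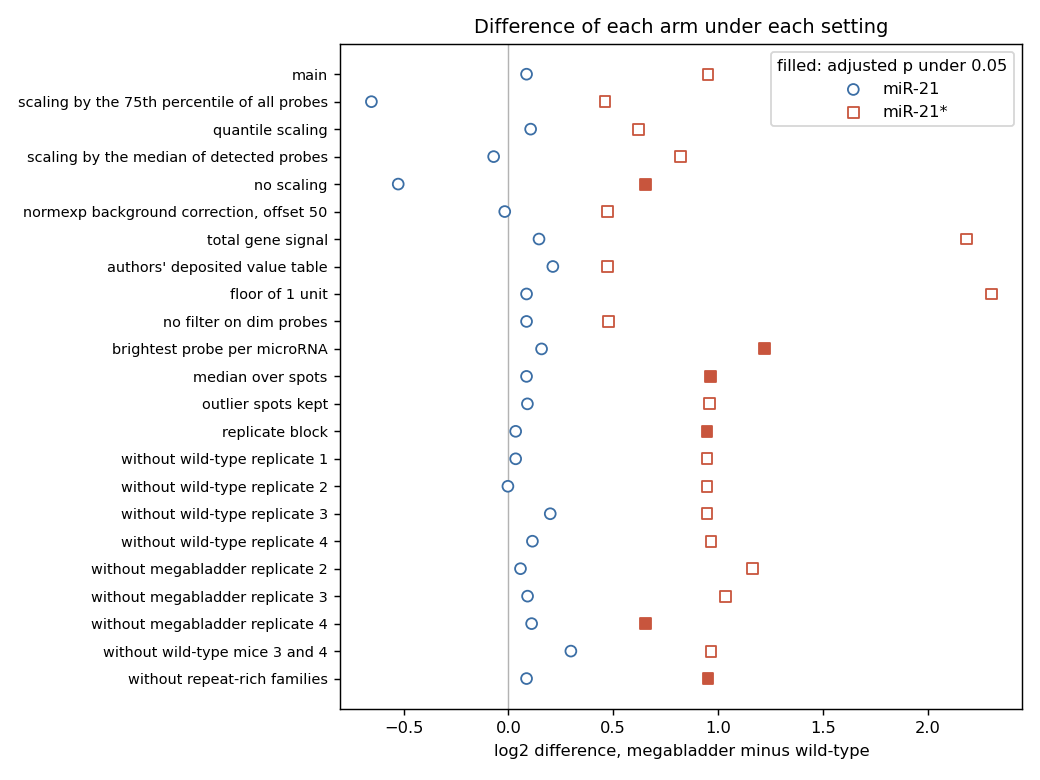
log2 difference, megabladder minus wild-type, of miR-21 (blue circles) and miR-21* (red squares) under the main processing and each alternative; filled symbols have an adjusted p under 0.05 in limma. The squares lie right of 0 throughout, between 0.46 and 2.30, and the circles scatter around 0, between -0.65 and 0.30, none filled.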

How the data were processed

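Total RNA, 100 ng per kidney, was labelled with Cy3 and read on 1-colour Agilent mouse microRNA arrays, per the labels' protocols. Spot intensity values came from the authors' run of Agilent Feature Extraction, version 10.7.3.1 per the submitters' processing notes. The deposited intensity values include background-subtracted signals, not scaled between arrays, and a value table whose scaling the sources used here do not state. Names in that table shift after place 532 of 650; the places of both arms, 230 and 231, precede the shift.

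Non-control, non-outlier spots were averaged per probe and divided by each array's 75th percentile over the 292 probes above background on all arrays. The floor of 11.39 scaled units is, for probes above background, the 1st percentile of each array, taken as the median of all arrays. log2 levels were averaged over probes above background on at least 3 arrays, which left 213 microRNAs and 404 probes, and tested with limma (version 3.58.1, R 4.3.3) and Benjamini-Hochberg adjustment over each table, threshold 0.05. Differences are megabladder minus wild-type. Single values were tested with exact permutation tests, 2-sided, over the 35 splits of 7 arrays. The fits were tested on simulated data without a floor and with planted changes larger than that of miR-21*. The simulation therefore does not cover values at the floor. The number of arrays limits the precision, and the labels number the mice, so p-values measure the spread between these animals. For miR-21* and other values at the floor, that spread was in part cut off by the floor.

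The text names both arms and their probes, the 3 microRNAs closest in profile to each arm, microRNAs sharing a seed with either, the tested members of the fibrosis list, and pairs of arms next to miR-21 in the difference of ratio. Probes without overlap before scaling were named after their values were seen. The members and lists were chosen with earlier results of these data known. Matched replicate numbers did not pair the mice: deviations of same-numbered mice correlated at -0.21, 0.0073 and 0.21.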

Additional observations from a re-analysis of the deposited data

Results flagged for a closer look

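Groups of 4 wild-type kidneys were checked for a sample far from the others in 24 values, and 3 stood out; chance gives about 1 in 20. In each, the other mice were at the floor of 3.51, so any value above it stood out. miR-21* was highest in wild-type mouse 4 (3.57), as was its probe A_54_P3447 (3.63). miR-764-5p was highest in wild-type mouse 1, at 3.5107 against 3.5103 in the others. Before the floor, wild-type mice 3 and 4 were close to each other with A_54_P3447, at 11.8 and 12.4 units, above mice 1 and 2 at 4.44 and 3.12 units.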

How the results depend on the processing

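Alternatives changed 1 choice at a time, except that the authors' deposited table and the total gene signal also changed which microRNAs were tested, and the block on the ratio also changed the test. For miR-21 the sign turned with the 75th percentile of all probes (-0.65), the median of detected probes (-0.070), no scaling (-0.53), normexp background correction (-0.017) and without wild-type mouse 2; leaving out 1 kidney gave -0.0023 to 0.20, and no adjusted p passed. A_54_P1307 turned to -0.58 with all probes and -0.45 with no scaling. A_54_P1308 turned to -0.72, -0.14, -0.60 and -0.066 with all probes, the median, no scaling and normexp and spanned -0.074 to 0.12 without single kidneys. For miR-21*, limma passed with the brightest probe (1.22, adjusted p = 0.0469), the median over spots (0.96, adjusted p = 0.0454), no scaling (0.66, adjusted p = 0.0397) and without repeat-rich families (0.95, adjusted p = 0.0390), and the exact permutation test gave 0.95 (p = 0.0286). Leaving out 1 kidney gave 0.66 to 1.17 with adjusted p from 0.0260 (without megabladder mouse 4) to 0.161; a filter of all 7 arrays left no value for miR-21* or the ratio. The arm ratio missed 0.05 by exact permutation with the authors' deposited table (0.26), a floor of 1 unit (2.22), no filter (0.39), normexp (0.49), quantile scaling (0.52) and without wild-type mice 3 and 4 (0.67). Without single kidneys it was 0.54 to 1.11. With any mouse left out, the last alternative included, no exact permutation p can fall under 0.05, so these misses say nothing about stability. A probe of either arm, A_54_P3447, passed (1 of 4) with no scaling and without repeat-rich families, and 0 to 1 without single kidneys. The 7 microRNAs past the threshold became 69 with no scaling, 15 with the median over spots, 15 without repeat-rich families, 4 with the filter of all 7 arrays, 2 with the median of detected probes, 2 with the total gene signal, 1 with the authors' deposited table and 1 without wild-type mice 3 and 4. limma called 0 with all probes (106 at an unadjusted p under 0.05), quantile scaling (46), a floor of 1 (30), no filter (40) and normexp (35), and 0 to 19 without single kidneys: 0 without wild-type mouse 1, 2 or 3 or megabladder mouse 2 (47, 46, 26 and 32 unadjusted), 1 without wild-type mouse 4 and 19 without megabladder mouse 3. The fibrosis list's median of 0.38 became -0.19 with no scaling and -0.32 with all probes, and 0.18 to 0.49 without single kidneys. The median difference of all microRNAs was 0.087, against -0.62 (all probes), -0.13 (quantile), -0.058 (median) and -0.50 (none). Apart from the floor, where 3 of 4 wild-type values of miR-21* have only a bound, the cause of these changes was not tested. With the replicate number as a block, although the numbers did not pair the mice, miR-21* was 0.95 (adjusted p = 0.0469), miR-21 0.035, A_54_P1308 -0.0033, the ratio 0.91 (adjusted p = 0.0272) and the count of microRNAs past the threshold 28.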
